A study of Rattus norvegicus with 2 samples.

Results

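The 29 genes described here are the LIF-family cytokines, their receptors and the proteins of JAK-STAT-SOCS signalling, chosen by gene symbol and not by a measured value, though with earlier results of these data known. Of the 29 genes, 27 have a row in the deposited table of 32662 rat genes, and each of the 27 symbols has 1 row. Stat4 and Socs2 have no row under these symbols, so their levels were not analysed here. The study sequenced RNA of rat retina to look for circular RNAs that differ after an ischemic injury, and the values used here are its gene expression levels. The CTRL library was made from the retina of a Long-Evans rat after a sham procedure, and the IR12 library from the retina of a Long-Evans rat collected 12 h after reperfusion that followed ischemia (IR, ischemia-reperfusion). Both are labelled with an age of 2 months, the study's methods name female animals, and they point to a single retina for each library without a count of animals. There is 1 library per condition, so no difference below has a replicate check, and what sets these libraries apart for other reasons cannot be told apart from the effect of the injury. The labels name a stranded total RNA kit and the series description a stranded mRNA kit, both with removal of ribosomal RNA.

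LIF, oncostatin M, CNTF and CLCF1 are cytokines that signal through receptor complexes containing gp130, the product of Il6st. Binding activates JAK kinases on the inner side of the receptor, these phosphorylate STAT proteins, and the STATs enter the nucleus and switch on target genes, among them Socs3 and Cish, whose products then damp the pathway. In the retina LIF and CNTF are known as factors that act on Müller glia and protect photoreceptors, and Gfap in Müller glia is a known response to them.

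Levels are FPKM, read numbers scaled to transcript length and by a factor of the library, so they can be compared between genes per length. Differences are log2 ratios of (FPKM + 1), IR12 over CTRL, which understates how far genes at low levels differ. A gene was counted as higher or lower when this ratio was at least 1 in size, which is 2-fold in FPKM + 1. Of the 27 genes, 25 had an FPKM of at least 1 in either library, and Osm and Socs1 did not. Lif, Clcf1, Osmr, Jak3, Stat3, Socs3 and Cish, 7 of the 25, were at least 2-fold higher in IR12, where 6.56% of the 13599 genes with such an FPKM were (892 genes). None of the 25 was at least 2-fold lower, where 6.12% of all these genes were (832 genes). Of the 7 genes, 6 reached the minimum through IR12 alone and could hardly be counted without being higher there, so the count of 7 is a description. An FPKM of at least 1 in CTRL, a filter chosen after seeing the data, left 19 of the genes. Only Stat3 was counted as higher, 1 of 19, where 4.13% of the 12958 genes that pass this filter were. Counted as lower were 0 of 19, where 6.42% were. The added 1 keeps Stat5a and Stat6 under the limit, though their FPKM was 2.23 and 2.10 times as high in IR12. With a pseudocount of 0.1 both were called. The 25 genes had a median log2 ratio of 0.42, and all 13599 genes had 0.02, a distance of 0.40 in which the same 6 genes take part. With the minimum set in CTRL the median of the 19 genes was 0.22 and the distance to all genes passing it 0.23, and with a pseudocount of 5 the distance for the 25 genes was 0.27. Rescaling both libraries to the same summed FPKM (TPM scale) moved the median of all genes to 0.59 and that of the 25 genes to 1.04, a distance of 0.44. On that scale 2817 genes were higher and 436 lower, so 86.6% of the called genes were higher in place of 51.7%, and 13 of the 25 genes were called higher.

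**Figure D1:**
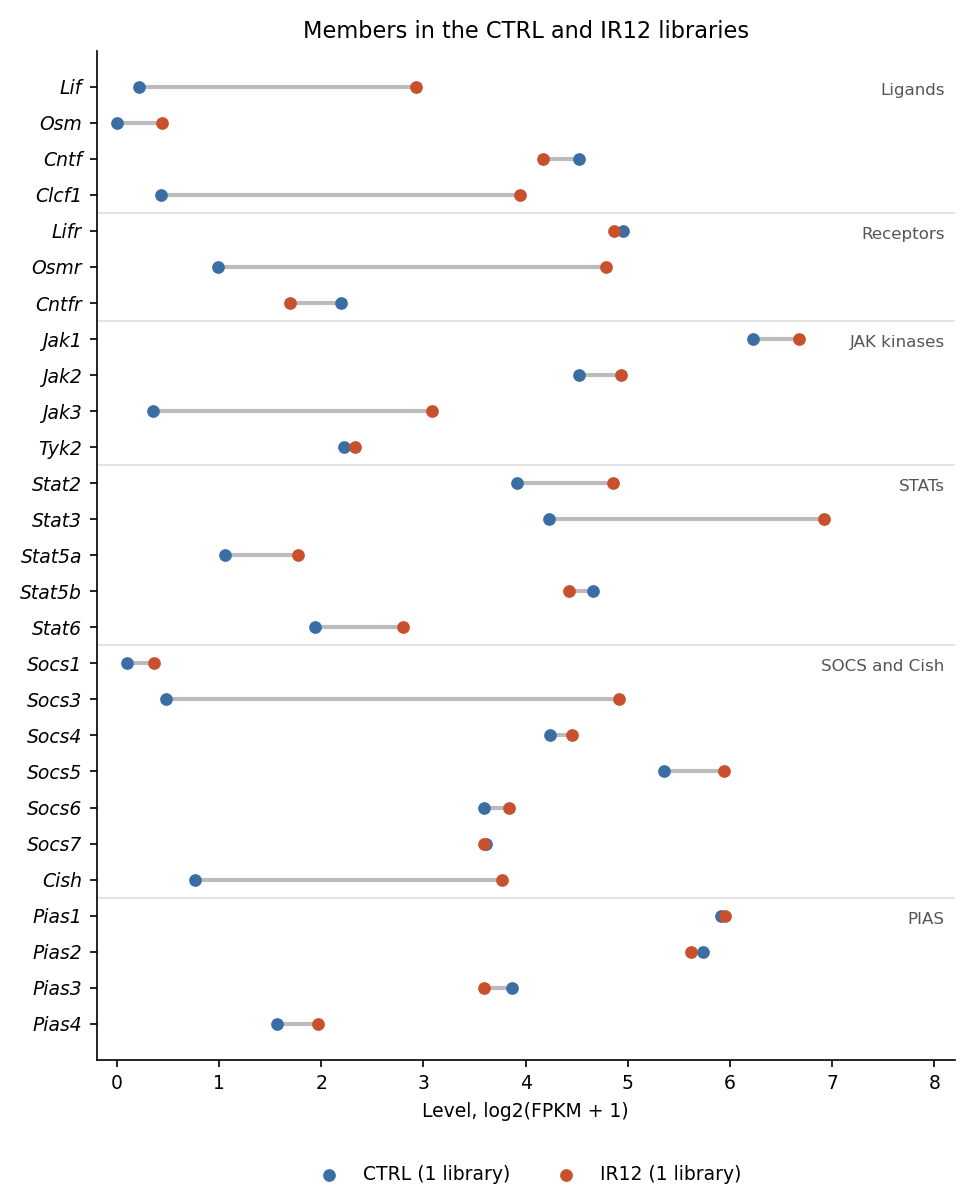
Level of each of the 27 genes as log2(FPKM + 1) in the CTRL library and in the IR12 library, ordered by role, with a line joining the 2 values of a gene. Lif, Clcf1, Osmr, Jak3, Socs3 and Cish have an FPKM under 1 in CTRL and between 6.63 and 29.1 in IR12, and Stat3 has the highest level in IR12.

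Among the ligands, Lif and Clcf1 were higher in IR12 and Cntf was at similar levels in both libraries. Lif, the cytokine that names the family, had an FPKM of 0.160 in CTRL against 6.63 in IR12, a log2 ratio of 2.72. With pseudocounts of 5 and 0.1 this log2 ratio was 1.17 and 4.69. Clcf1, which encodes a ligand of the CNTF receptor, had 0.347 in CTRL against 14.4 in IR12, a log2 ratio of 3.52. With the same pseudocounts the log2 ratio of Clcf1 was 1.86 and 5.02. Cntf, a neurotrophic cytokine without a secretion signal, had 22.1 in CTRL against 17.0 in IR12, and its log2 ratio of -0.36 turned to 0.25 on the TPM scale. The ligand with the highest level was thus the same gene in both libraries. The FPKM of Cntf was 63.5 times that of Clcf1 in CTRL and 1.17 times that of Clcf1 in IR12, ratios within a library that no scaling changes. Osm, which encodes oncostatin M, was listed at 0 in CTRL against 0.356 in IR12. A value of 0 in the table need not mean a silent gene, since all 37 mitochondrial genes are listed at 0 in both libraries. Osm differs from these, as it has a value in IR12, and its 0 in CTRL stands for few or no assigned reads. Osm and Lif are neighbours on rn6, with Osm at chr14:84465515-84470409 and Lif at chr14:84482674-84500642, and 12264 bp with no other row of the table lie between them. The level of the pair in IR12 differed, with 0.356 for Osm and 6.63 for Lif.

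The number of reads behind these values can be read from the lowest FPKM that genes of the same locus length share, which is the value of 1 read. Such steps showed that an FPKM of 1 stands for 15.4 reads per kb of effective length in CTRL against 26.3 in IR12, a factor 1.71 times as high in IR12. This factor belongs to the FPKM scaling and is not a ratio of sequenced reads, whose numbers were not used here. The level of Lif thus rested on about 2.47 reads per kb in CTRL against 174 in IR12, and that of Clcf1 on 5.35 and 380.1 reads per kb. The low levels in CTRL therefore carry a large counting error, which the ratios of these genes share.

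The receptors differed among themselves. Osmr, the specific chain of the oncostatin M receptor, had an FPKM of 0.990 in CTRL against 26.5 in IR12, a log2 ratio of 3.79. Its value in CTRL lay just under the minimum of 1 and rested on about 15.3 reads per kb. Lifr, the chain shared by receptors for LIF, CNTF and oncostatin M, had 30.1 in CTRL against 28.1 in IR12, with a log2 ratio of -0.09 as deposited and 0.53 on the TPM scale. Lifr was 30.4 times as abundant as Osmr per length in CTRL and 1.06 times as abundant in IR12. Cntfr, the chain that gives CNTF its specificity and is tied to the membrane by a lipid anchor, had 3.56 in CTRL against 2.24 in IR12. Its log2 ratio was -0.49 as deposited and -0.01 on the TPM scale. Osmr (rn6, chr2:56110777-56151531) and Lifr (chr2:56426367-56489415) lie on the same chromosome, 274835 bp apart.

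Of the JAK kinases, Jak1 had the highest level in both libraries and Jak3 the largest difference. Jak1, which serves gp130 and many other receptors, had an FPKM of 73.6 in CTRL against 102 in IR12, a log2 ratio of 0.46. Jak2 had 21.9 in CTRL against 29.7 in IR12, a log2 ratio of 0.42, and Tyk2, a partner of interferon receptors, had 3.68 and 4.02, a log2 ratio of 0.10. These 3 genes stayed under the 2-fold limit as deposited, while Jak1 and Jak2 passed it on the TPM scale with 1.10 and 1.04. Within a library the level of Jak2 was 0.298 times that of Jak1 in CTRL and 0.292 times in IR12. Jak3, the kinase that pairs with the common gamma chain of lymphoid cytokine receptors, had 0.275 in CTRL against 7.49 in IR12, a log2 ratio of 2.73. The locus listed for Jak3 is shared with 4 other rows, among them Fcho1 with an FPKM of 1.03 in CTRL against 1.44 in IR12. The strand setting of the counting is not given in the sources used here, so reads of Jak3 and of genes that overlap it could not be separated with certainty.

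Stat3 stood apart among the STATs, the transcription factors that the kinases activate. Stat3, the main STAT of gp130 receptors, had an FPKM of 17.7 in CTRL against 120.2 in IR12, a log2 ratio of 2.69. With about 273 reads per kb in CTRL against 3164 in IR12, it was the called gene of the family with the most reads behind its level in CTRL. Across the alternatives for pseudocount and scaling its log2 ratio lay between 2.46 and 3.31. The ranges of the other called genes were wider, from 1.17 to 4.69 for Lif, 1.86 to 5.02 for Clcf1 and 2.40 to 4.61 for Osmr. They were 1.24 to 4.34 for Jak3, 2.66 to 5.89 for Socs3 and 1.63 to 3.99 for Cish. Stat2, which works with IRF9 downstream of type I interferon, had 14.1 in CTRL against 28.0 in IR12. Its log2 ratio was 0.95 as deposited, inside the 2-fold limit, and 1.55 on the TPM scale. Stat6, the STAT of interleukin-4 signalling, had 2.84 in CTRL against 5.96 in IR12, a log2 ratio of 0.86 that was 1.34 on the TPM scale. Its listed locus is shared with Nab2, which had 1.40 in CTRL against 3.12 in IR12. Stat5a had 1.08 in CTRL against 2.42 in IR12, a log2 ratio of 0.71 as deposited and 1.06 on the TPM scale. Stat5b, its close copy and like it a STAT of growth hormone and prolactin receptors, had 24.3 in CTRL against 20.4 in IR12, and its log2 ratio of -0.24 turned to 0.37 on the TPM scale. Reads that match both copies could have been divided between them, so their separate levels are uncertain. Within the libraries the level of Stat3 was 0.729 times that of Stat5b in CTRL and 5.89 times in IR12. Stat3 (rn6, chr10:88790408-88842233) begins 1350 bp past the end of Stat5a (chr10:88764732-88789057), and Stat5b (chr10:88686207-88754829) ends 9902 bp before Stat5a. The 3 neighbours thus differed in log2 ratio, with 2.69 for Stat3, 0.71 for Stat5a and -0.24 for Stat5b.

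Among the SOCS proteins and Cish, which bind activated receptors or kinases and end the signal, Socs3 and Cish were higher in IR12 and the others lay inside the 2-fold limit or under the minimum. Socs3, the inhibitor that acts on gp130 and its kinases, had an FPKM of 0.393 in CTRL against 29.1 in IR12, a log2 ratio of 4.43 and the largest of the 25 genes. The locus listed for Socs3 (rn6, chr10:106975178-106976040) is 863 bp long, and at this length the values stand for 4 reads in CTRL against 506 in IR12. Their ratio after division by this factor is 74.1, with a 95% interval from 28.8 to 273 (exact Clopper-Pearson interval of the share of reads, turned into a ratio), which covers counting error only and compares these libraries, not the conditions. Cish, an inhibitor best known from STAT5 signalling, had 0.700 in CTRL against 12.7 in IR12, a log2 ratio of 3.01. Socs1, an inhibitor of JAK kinases in interferon signalling, had 0.0695 in CTRL against 0.285 in IR12, which stand for 1 read and 7 reads over its locus of 1136 bp. The same ratio of Socs1 is 4.10 with an interval from 0.527 to 185, so a difference was not detectable with these reads.

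The 4 other SOCS genes were at higher levels in CTRL than Socs3 and Cish, and all lay inside the 2-fold limit as deposited. Socs5 had an FPKM of 39.9 in CTRL against 60.6 in IR12, a log2 ratio of 0.59 that passed the limit on the TPM scale with 1.22. Socs4 had 17.9 in CTRL against 21.0 in IR12, and Socs6 had 11.0 and 13.3. Socs7 had 11.2 in CTRL against 11.1 in IR12, and its log2 ratio of -0.02 turned to 0.57 on the TPM scale. The share of Socs3 in the summed FPKM of the 7 SOCS and Cish genes was 0.484% in CTRL and 19.7% in IR12, and that of Cish was 0.862% and 8.55%. Socs5 held the largest share in both libraries, with 49.2% in CTRL and 40.9% in IR12.

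The PIAS proteins, which add SUMO to other proteins and bind STATs in the nucleus, were all inside the 2-fold limit under each scaling. Pias1 had an FPKM of 59.4 in CTRL against 60.7 in IR12, and Pias2 had 52.4 and 48.1. Pias3, named as an inhibitor of STAT3, had 13.5 in CTRL against 11.0 in IR12, and its listed locus is shared with 3 other rows, among them Polr3c with 12.7 and 17.0 and SNORA5 with 34.9 and 0. The log2 ratios of Pias2 and Pias3 were -0.12 and -0.27 as deposited and turned to 0.51 and 0.32 on the TPM scale. Pias4 had 1.96 in CTRL against 2.92 in IR12, a log2 ratio of 0.41.

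**Figure D2:**
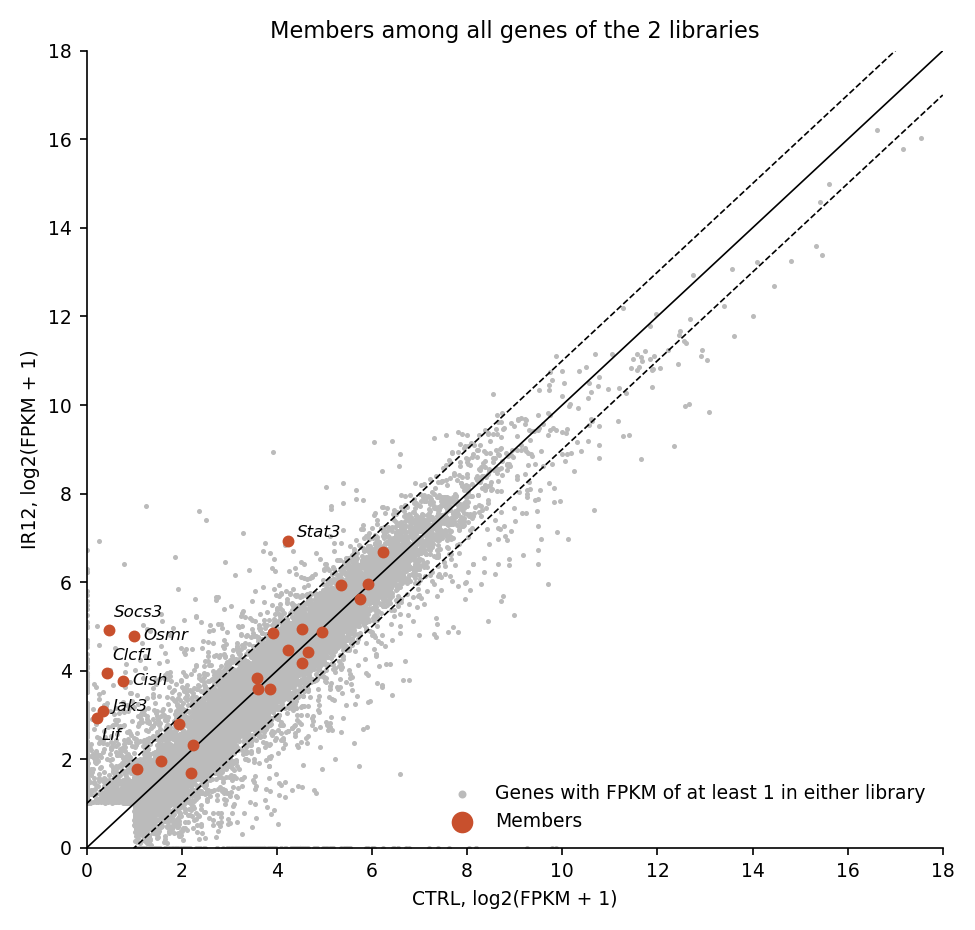
Level in IR12 against level in CTRL, both as log2(FPKM + 1), for the 13599 genes with an FPKM of at least 1 in either library (grey) and the 25 members among them (orange), with a solid line at equal levels and dashed lines at 2-fold. The 7 named genes lie above the upper dashed line, 6 of them at the left edge where the level in CTRL is under 1, and none lies under the lower line.

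**Figure D3:**
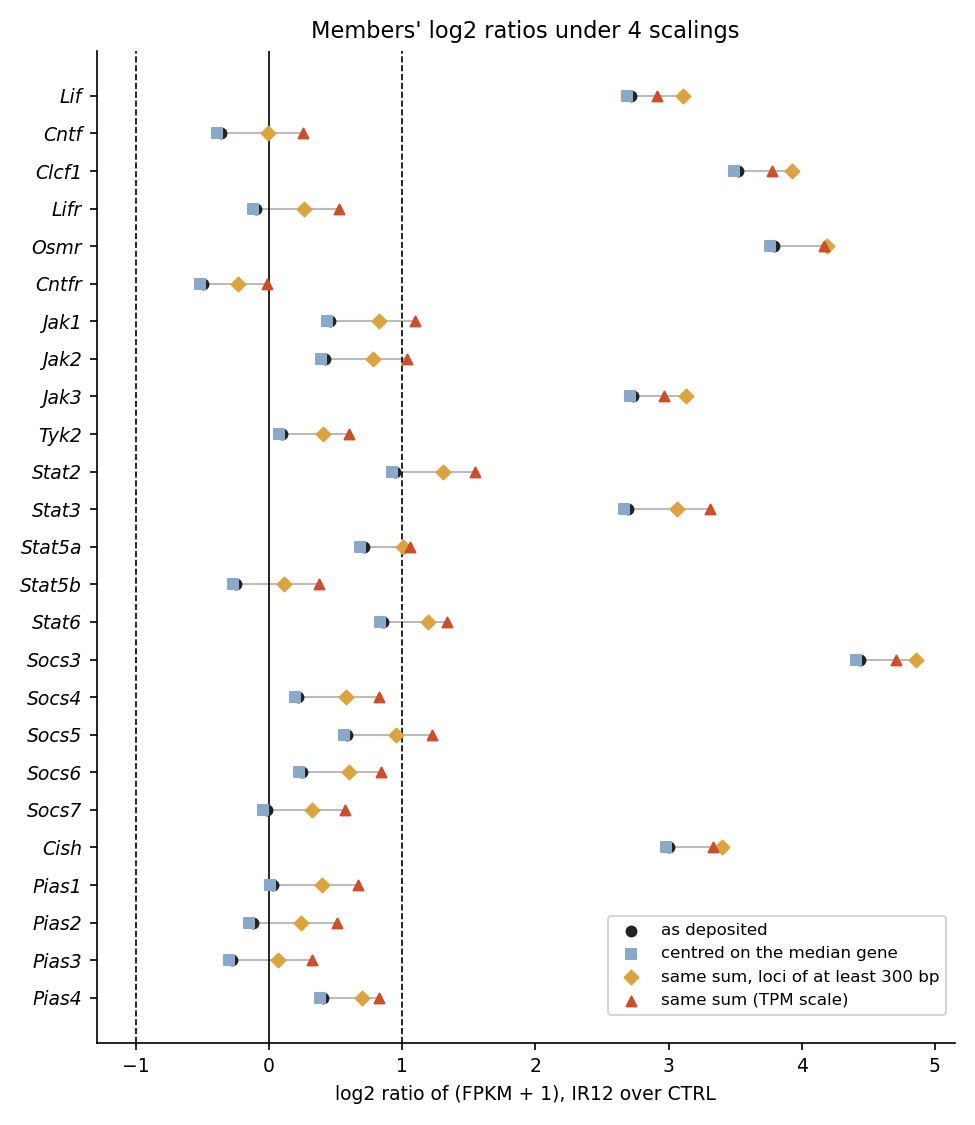
The log2 ratio of (FPKM + 1), IR12 over CTRL, of the 25 members as deposited and under 3 other scalings, with dashed lines at 2-fold. The 7 called genes stay past 1 under each scaling, while Cntf, Lifr, Stat5b, Socs7, Pias2 and Pias3 lie under 0 as deposited and above 0 on the TPM scale.

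Sequence at the starts of the genes was read from RefSeq on GRCr8, as windows from 250 bases before to 50 bases after the listed start, to show where letters known from STAT binding occur at genes of the pathway. A listed start need not be the start of the transcript, and the window of Socs3 runs into its coding sequence, so that it is not read here as a promoter. Whether other windows also reach coding sequence was not checked. Of the 29 genes, 19 have such a window, and the windows of Socs3 and Stat4 are among these 19. The motif TTCNNNGAA, the core of the gamma-activated sequence that STAT dimers bind and its own reverse complement, occurs in 8.87% of all 33469 windows. It was found in 2 of the 19 windows, those of Cish and Socs1. The window of Cish (chr8:116850719-116851018, plus strand) holds 4 matches, which begin 241, 230, 136 and 119 bases before the start, and 2 of all windows hold 4 or more. The window of Socs1 (chr10:5389324-5389623, plus strand) holds 1 match, 196 bases before the start. It also holds 2 matches, overlapping each other, to GAAA, any 2 bases and GAAA again, the core of the interferon-stimulated response element bound by STAT2 with IRF9, searched on both strands and present in 3.92% of all windows. Of the other genes of the pathway, 40 have a window, and TTCNNNGAA is in those of 4, Irf9, Ifnar2, Il10rb and Prlr, of which Irf9 was counted as higher. Ifnar2, with an FPKM of 5.71 in CTRL against 12.4 in IR12, lay just under the limit as deposited and had a log2 ratio of 1.55 on the TPM scale. Il10rb had 2.92 in CTRL against 3.25 in IR12, a log2 ratio of 0.12 as deposited and 0.59 on the TPM scale. Prlr was under the minimum, with 0.0673 in CTRL against 0.0537 in IR12. The core of the interferon-stimulated response element is in 1 of the 40, that of Il6st, beside the same 3.92% of all windows. In Irf9 the window (chr15:33065586-33065885, plus strand) holds TTCNNNGAA 99 bases before the start. Of the 18 known STAT3 target genes with a window, 4 hold TTCNNNGAA, of which Icam1 and Zfp36 were counted as higher, Bcl2l1 was not, and Serpina3n has no row in the table. Some genes, among them Bcl2l1 and Prlr, have several windows, and these were counted when any window held the motif. The share of 8.87% is per window, so it is not on the same footing as these counts of genes. Of the 7 called members, Cish alone has a window with these letters, and Lif, Clcf1 and Jak3 have no window. Stat3 and Osmr have windows without them, which says nothing of other positions. The window of Socs3, not read as a promoter, also lacks them. The 3 windows are printed 5′ to 3′ with the matches in capitals, both motifs for Socs1 and TTCNNNGAA for the others, and a match is a description of letters and not of binding.
Cish: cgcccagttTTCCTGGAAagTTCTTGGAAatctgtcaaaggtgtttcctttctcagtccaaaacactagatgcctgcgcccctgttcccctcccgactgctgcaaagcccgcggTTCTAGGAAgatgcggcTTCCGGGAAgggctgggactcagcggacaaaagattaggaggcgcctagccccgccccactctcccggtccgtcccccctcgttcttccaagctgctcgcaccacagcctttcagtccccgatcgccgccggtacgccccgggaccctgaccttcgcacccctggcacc
Socs1: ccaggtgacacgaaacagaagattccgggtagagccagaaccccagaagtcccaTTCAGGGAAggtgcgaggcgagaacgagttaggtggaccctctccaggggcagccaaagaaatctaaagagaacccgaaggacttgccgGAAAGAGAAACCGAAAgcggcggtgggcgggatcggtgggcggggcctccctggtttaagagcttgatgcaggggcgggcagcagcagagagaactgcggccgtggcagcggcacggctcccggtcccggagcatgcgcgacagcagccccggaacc
Irf9: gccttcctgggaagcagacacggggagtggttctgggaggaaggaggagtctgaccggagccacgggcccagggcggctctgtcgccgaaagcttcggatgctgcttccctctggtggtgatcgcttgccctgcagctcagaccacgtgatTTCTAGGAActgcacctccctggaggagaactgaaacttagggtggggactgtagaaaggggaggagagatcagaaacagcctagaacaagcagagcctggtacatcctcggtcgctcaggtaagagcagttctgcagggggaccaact

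The other genes of the pathway were taken as 45 genes in 3 lists, chosen with earlier results of these data known, of which 44 are in the table and 31 had an FPKM of at least 1 in either library. Past the limit were 11 of the 31, all higher in IR12, with 0 lower, and the median of the 31 on the log2 scale was 0.37, where 6.56% of all genes were higher and their median was 0.02. Of the 11 genes, 5 were under an FPKM of 1 in CTRL, and 6 of the 26 genes with an FPKM of at least 1 in CTRL were higher, with a median of 0.25, where 4.13% of all such genes were. The count was 3 with a pseudocount of 5.

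Il6st, whose product gp130 is the signalling chain shared by the whole cytokine family, had an FPKM of 64.8 in CTRL against 182 in IR12, a log2 ratio of 1.47. It was the most abundant of the pathway's receptor genes in both libraries, and its level was 2.15 times that of Lifr in CTRL and 6.47 times in IR12. Il6r, the interleukin-6 receptor, had 1.86 in CTRL against 5.84 in IR12, a log2 ratio of 1.26. Of the ligands, Il6 was listed at 0 in CTRL against 1.76 in IR12. Il11, another gp130 cytokine, had 0.221 and 1.45, a ratio just past the limit that fell under it when ratios were centred on the median gene. Ctf1, a further ligand of this list named after its values were seen, had 2.01 in CTRL against 0.604 in IR12. Its log2 ratio of -0.91 lay inside the limit. Il11ra1, the receptor of interleukin-11, had 5.16 in CTRL against 4.53 in IR12. Il31ra and Il27 were also listed at 0 in CTRL, Il27 in both libraries.

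Irf9, the partner of STAT2, had an FPKM of 10.6 in CTRL against 54.3 in IR12, a log2 ratio of 2.26. Ptpn1, a phosphatase that removes phosphate from JAK kinases, had 9.16 and 26.7, a log2 ratio of 1.45. Ptprc, the leukocyte phosphatase CD45, had 0.408 and 2.98, also past the limit. Ptpn11, the phosphatase SHP2 that gp130 recruits, had 58.9 in CTRL against 73.2 in IR12, a log2 ratio of 0.31. Ptpn2, a phosphatase of JAK kinases and STATs, had 37.5 and 49.95, and its log2 ratio of 0.40 passed the limit on the TPM scale with 1.03. Ep300, a co-activator of STATs, had 53.5 and 43.3, and its log2 ratio of -0.30 turned to 0.33 on the TPM scale.

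Of the JAK-coupled receptors outside the gp130 family, Ifngr2, Il2rg, Il4r and Csf2rb were at least 2-fold higher in IR12. Ifngr2, a chain of the interferon gamma receptor, had an FPKM of 5.63 in CTRL against 12.8 in IR12, a log2 ratio of 1.06. Il4r, the interleukin-4 receptor, had 1.74 and 7.25, a log2 ratio of 1.59. Il2rg, the common gamma chain with which JAK3 pairs, had 0.348 in CTRL against 4.12 in IR12, a log2 ratio of 1.92. Csf2rb, the chain shared by receptors for GM-CSF, interleukin-3 and interleukin-5, had 0.0207 in CTRL against 2.78 in IR12, a log2 ratio of 1.89. The 3 genes of this list at the highest levels lay inside the limit. Ifnar1, a chain of the type I interferon receptor, had 36.5 in CTRL against 36.2 in IR12, Ifngr1 had 15.1 and 19.3, and Ghr, the growth hormone receptor, had 13.4 and 14.1. Il7r was listed at 0 in both libraries.

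Known STAT3 target genes were read as a list of 24 textbook genes, chosen in the same way, of which 22 are in the table and 19 had an FPKM of at least 1 in either library. Past the limit were 13 of the 19, all higher in IR12, with 0 lower and a median log2 ratio of 1.68, beside the same 6.56% of all genes. Of the 13 genes, 7 were under an FPKM of 1 in CTRL, and 6 of the 12 genes with at least 1 in CTRL were higher, with a median of 1.17, beside 4.13% of all such genes. Most of these genes also answer to other transcription factors, and the share of STAT3 in their levels was not tested.

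Timp1, an inhibitor of metalloproteinases, had an FPKM of 4.71 in CTRL against 169 in IR12, the largest log2 ratio of the list at 4.89. Its listed locus is long (rn6, chrX:1321315-1390873). Whether other rows share it was not looked up, as for all genes that are not members. Ccnd1, which encodes cyclin D1, had 3.90 in CTRL against 36.3 in IR12, a log2 ratio of 2.93. Gfap, the intermediate filament of reactive glia, had 2.95 and 21.9, a log2 ratio of 2.54. The transcription factor gene Fos had 7.40 in CTRL against 21.2 in IR12, and Zfp36, whose product hastens the decay of cytokine mRNAs, had 1.23 and 6.14. Il4r, described above among the receptors, is the sixth of the genes that pass the minimum in CTRL. Among the genes under 1 in CTRL, Junb had 0.780 in CTRL against 16.7 in IR12, Bcl3 had 0.193 and 9.24, and Myc had 0.0911 and 7.79. Lcn2, an iron-binding acute phase protein, had 0.473 in CTRL against 11.8 in IR12, and Icam1, an adhesion molecule for leukocytes, had 0.718 and 7.32. Cebpd had 0.832 and 7.55, and the kinase gene Pim1 had 0.710 and 3.05. The most abundant gene of the list, Hif1a, had 325 in CTRL against 337 in IR12, a log2 ratio of 0.05. Vegfa had 56.0 in CTRL against 43.5 in IR12, and its log2 ratio of -0.36 turned to 0.28 on the TPM scale. Targets at similar levels and targets at far higher levels in IR12 thus stood in 1 list. A2m, an acute phase protein of the rat liver, was listed at 0 in both libraries, and Cebpb was listed at 0 in CTRL.

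Of the known STAT5 target genes, 5 that are not members were in the table, and 2 of the 5, Pim1 and Ccnd1, were past the limit with higher levels in IR12, beside 6.56% of all genes, and are also on the STAT3 list. Pim1 reached the minimum through IR12 alone, and 1 of the 4 genes with at least 1 in CTRL was higher, beside 4.13% of all such genes. Bcl2l1, which encodes the survival protein BCL-XL, had an FPKM of 15.1 in CTRL against 16.5 in IR12. Igf1, a growth factor gene that growth hormone controls through STAT5B, had 9.17 in CTRL against 6.26 in IR12, and its log2 ratio of -0.49 turned to 0.08 on the TPM scale.

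**Figure D4:**
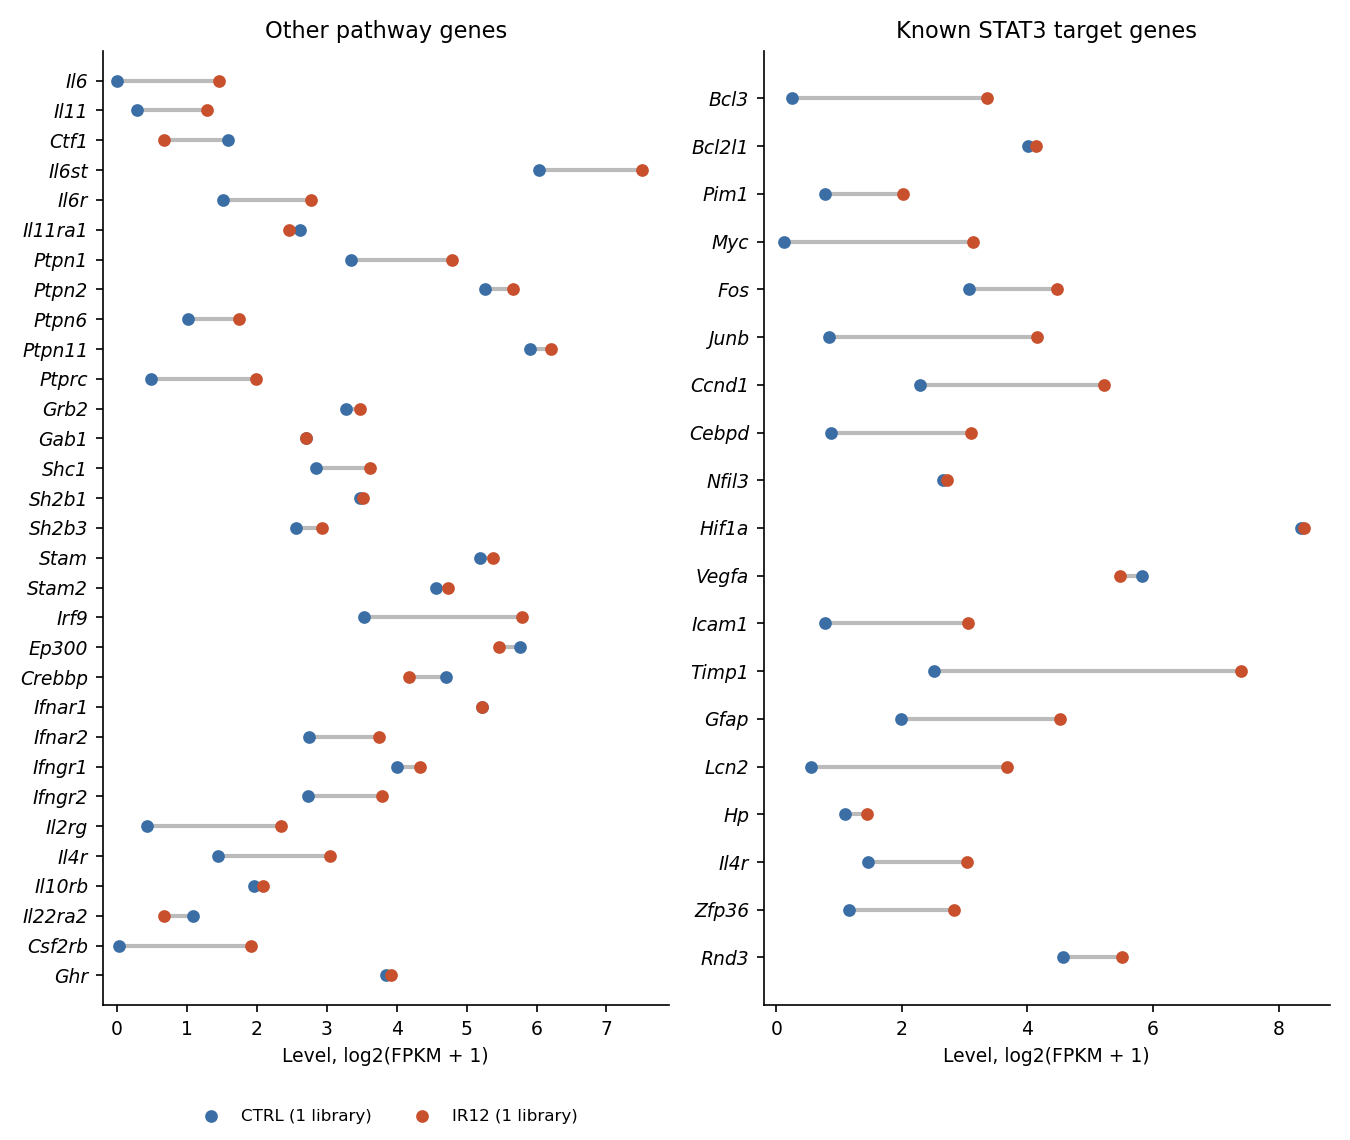
Levels as log2(FPKM + 1) in the CTRL and IR12 libraries of the 31 other pathway genes (left) and the 19 known STAT3 target genes (right) with an FPKM of at least 1 in either library. At least 2-fold higher in IR12 were 11 of the 31 and 13 of the 19, and Il6st on the left and Hif1a on the right have the highest levels.

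Marker genes of retinal and other cell types differed between the same libraries. In a bulk sample, fewer cells of a type and less RNA per cell cannot be told apart. Rod photoreceptor markers were at high levels in both libraries, as in retina, with a summed FPKM of 28411 in CTRL against 28348 in IR12 and with Gngt1 as the most abundant gene (12096 and 8644). None of the 10 rod genes was past the 2-fold limit as deposited, while on the TPM scale 1 was higher, Sag, named after its values were seen, and their median log2 ratio moved from -0.02 to 0.63. Of the infiltrating leukocyte markers, 5 of 10 had an FPKM of at least 1 in either library and all 5 were higher in IR12, beside 6.56% of all genes, although 4 of these were under 1 in CTRL. Their summed FPKM was 11.1 in CTRL against 123 in IR12, the most abundant gene, Lyz2, had 9.73 and 76.9, and the sum without it was 1.40 and 46.4. Listed at 0 in CTRL were Ccr2, Cd3e, Mpo and S100a8, and listed at 0 in IR12 were Cd79b and Mpo. Ptprc and Csf3r of this list are also on the pathway lists. The part of leukocyte RNA in the higher levels of Jak3, Il2rg, Csf2rb, Lif, Osmr, Socs3 and the other called genes was not tested. Microglia markers summed to 18.1 in CTRL against 19.7 in IR12, with Aif1 (5.42 and 7.36) the most abundant, and 0 of the 7 genes that pass the minimum were past the limit.

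Of the 10 Müller glia markers, 9 were at least 2-fold lower in IR12 as deposited, beside 6.12% of all genes, and 6 on the TPM scale, where 1 was higher, beside the 436 lower and 2817 higher of all 13599 genes. The summed FPKM of the list was 1705 in CTRL against 587 in IR12, and the most abundant gene was Glul, with 754 in CTRL against 126 in IR12. Müller glia carry receptors of this cytokine family, and the part of the lower Müller glia markers in the levels of the family was not tested. Of the 3 astrocyte markers that pass the minimum, Gfap was higher, S100b (25.8 in CTRL against 5.81 in IR12) was lower, and Pdgfra was lower as deposited, a gene named after its values were seen. The summed FPKM of the astrocyte list was 36.1 in CTRL against 29.7 in IR12, and Pax2 was listed at 0 in CTRL. The 7 lens markers were all at least 2-fold lower in IR12 under each scaling, beside the same 6.12% of all genes as deposited, with a sum of 3374 in CTRL against 400.2 in IR12 and with Cryba1 (1614 and 196) the most abundant. The part of lens RNA in the other differences was not tested.

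The neuronal lists had lower sums in IR12 as deposited. Cone photoreceptor markers summed to 428 in CTRL against 286 in IR12 with Gnat2 (179 and 138) the most abundant, and bipolar cell markers to 619.6 and 456 with Trpm1 (189 and 159). Amacrine and horizontal cell markers summed to 594 in CTRL against 348 in IR12 with Calb2 (275 and 148), and retinal ganglion cell markers to 333 and 269.6 with Nefl (132 and 88.8). At least 2-fold lower as deposited were 1 of 8 cone genes and 1 of 8 ganglion cell genes, beside 6.12% of all genes. These were Opn1sw and Pou4f2, both named after their values were seen. None of the bipolar or amacrine and horizontal cell genes was at least 2-fold lower. On the TPM scale 0 genes of these 4 lists were past the limit, beside 2817 higher and 436 lower of all 13599 genes. The median log2 ratio turned from below to above 0 for 3 of the 4 lists, the cone, bipolar and ganglion cell lists. Endothelium and pericyte markers summed to 158 in CTRL against 95.2 in IR12 with Kdr (108 and 66.8), and retinal pigment epithelium markers to 93.0 and 119.9 with Ttr (61.8 and 87.4). In each of these lists 1 gene, Rgs5 and Rpe65, named after their values were seen, was at least 2-fold lower as deposited, beside 6.12% of all genes. On the TPM scale 0 genes of the endothelium and pericyte list were past the limit. Its median log2 ratio turned from -0.41 to 0.11. Of the pigment epithelium list 0 genes were lower on that scale and 2 were higher, Ttr with 1.13 and Rgr with 1.22. Rgr was named after its values were seen. Of the red blood cell markers, 2 are in the table, with a sum of 20.8 in CTRL against 35.3 in IR12 that is nearly all Hbb (20.4 and 35.1). No marker besides those named is listed at 0 in either library.

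**Figure D5:**
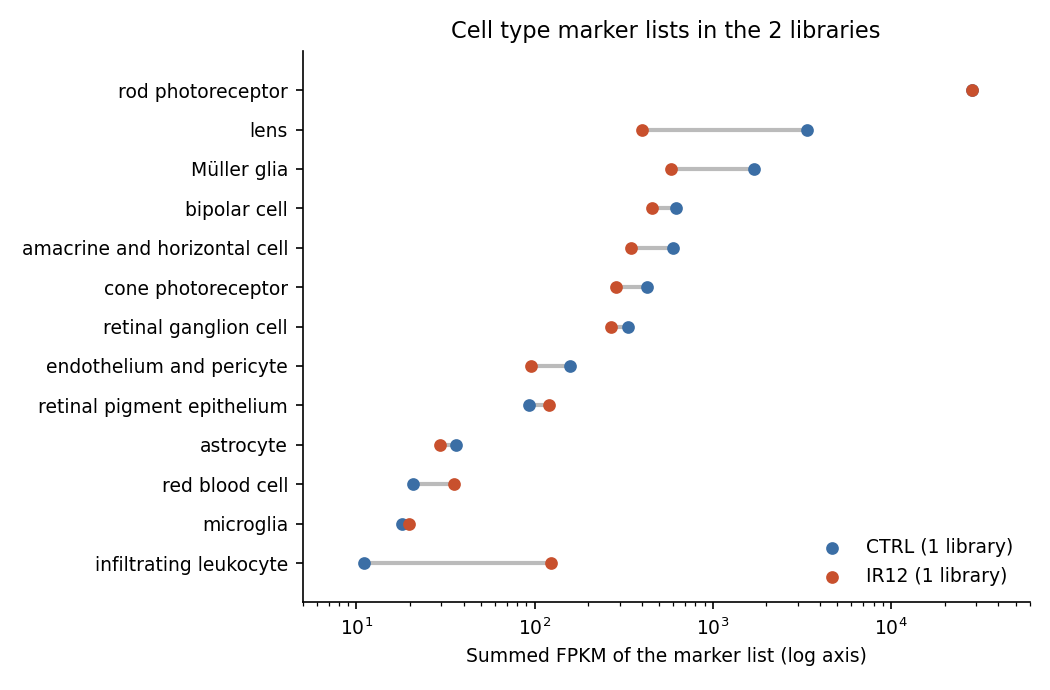
Summed FPKM of each cell type marker list in the CTRL and IR12 libraries, on a log axis. The rod list is at 28411 in CTRL against 28348 in IR12, the lens and Müller glia lists are lower in IR12, and the infiltrating leukocyte list is at 11.1 in CTRL against 123 in IR12.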

How the data were processed

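RNA of rat retina was sequenced in 1 CTRL and 1 IR12 library, assigned by their titles, from 350 ng of total RNA per library and with single-end reads of 150 bp. The study shortened its reads because of low quality toward their 3′ ends, and the read length behind the FPKM was not established here. The authors deposited gene FPKM, 1 column per library, and their processing notes name STAR 2.5.2b, Cuffdiff 2.2.0 and the rn6 genome. Starts in the table count from 0, and 1 was added. FPKM was used as deposited with a pseudocount of 1, a minimum of 1 in either library and a 2-fold limit, and with 1 library per condition no test was run. Besides genes without a row, 4 genes of the planned lists were not used here. The members, the gene lists and the alternatives were chosen with earlier results of these data known. Named are all members, the genes of the pathway and STAT target lists past the limit and the 3 with the highest mean FPKM of each list, Il6st and, of each marker list, the most abundant gene and genes listed at 0. Also named are genes of the pathway and STAT target lists that are listed at 0 or have TTCNNNGAA in a window. Other genes are marked as named after their values were seen, or share a locus with a member. A symbol with several rows was given by its row with the highest mean FPKM.

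The reads behind an FPKM were estimated, as a step chosen after seeing the data, by a Theil-Sen line through the inverse of the lowest FPKM that at least 3 genes of 1 locus length share, at 5 lengths in CTRL against 16 in IR12 between 400 and 1500 bp. The lower bound was set after shorter loci were seen to depart from the line. The effective length is the locus length less 202 bp. Of the values under 20 reads at these lengths, 72.2% of 489 in CTRL and 73.9% of 716 in IR12 came out within 0.02 of a whole read, so whole read numbers are given only for Socs3 and Socs1, whose values do, and reads per kb of other genes are the FPKM times the factor of the library. The steps were tested on simulated data. The scripts ran on Python 3.11.15 with pandas 2.3.3, numpy 2.4.6, matplotlib 3.10.9 and, for the intervals, scipy 1.17.1.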

Additional observations from a re-analysis of the deposited data

How the results depend on the processing

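The alternatives were pseudocounts of 0.1 and 5, 3 scalings, 3 minimum levels, the sum of rows of a symbol and, chosen after seeing the data, a minimum FPKM of 1 in CTRL. No replicate could be left out, and no paired analysis was possible because each condition has 1 library. For 8 counts and medians the alternatives gave 80 values, and 66 of these lay within 1.5 times the value as reported, where log2 ratios and their medians were compared as the ratios they stand for. Of the 254 alternative values for the log2 ratios of single members, 28 moved by 1.5 times or more as ratios, a wide limit for ratios near 0 on the log2 scale, and the minimum levels and sums of rows leave these values as they are. Only a scaling could turn a direction, and none of the 3 turned that of a called gene. The list of 7 called members changed on the TPM scale, with rescaling over loci of at least 300 bp, with a pseudocount of 0.1 and with the minimum in CTRL. It was the same under the other alternatives. The sums of rows changed none of the counts, but each member has 1 row and all genes were counted by row. The minimum above 0 could change no count, since a gene called with a pseudocount of 1 has an FPKM of at least 1. The values of these alternatives are among the 66 and are little check. On the TPM scale 13 members, 2817 genes higher and 436 lower were called, and the median log2 ratio of the members was 1.04. Rescaling over loci of at least 300 bp gave 1728 genes higher, 74.6% of those called, 10 members and a member median of 0.78. These scales raise all genes of IR12 by 0.65 and 0.37 on the log2 scale before the pseudocount. Loci under 300 bp, which the latter leaves out of its sums, hold 33.0% of the summed FPKM in CTRL and 18.8% in IR12. A pseudocount of 5 gave 432 genes higher, 445 lower and 3 other pathway genes higher, with a member median of 0.29, since it shrinks low genes, and a pseudocount of 0.1 gave 1168 genes higher, 1176 lower, 9 members higher and 1 other pathway gene lower, Ctf1, named after its values were seen. A minimum FPKM of 5 left 6 other pathway genes higher, from fewer genes. A minimum FPKM of 1 in CTRL gave 535 genes, 1 member, 6 other pathway genes and 6 STAT3 target genes higher and a member median of 0.22, because it leaves out genes that pass through IR12 alone. Low levels in CTRL limit the precision of the ratios of 6 of the 7 called members.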
